A study of Homo sapiens with 8 samples.

Results

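The members described here are 10 genes of the vascular endothelial growth factor (VEGF) system and of blood vessel growth: VEGFA, VEGFB, VEGFC, PGF, FLT1, KDR, ANGPT1, ANGPT2, THBS1 and FGF2. They were chosen by name, as secreted inducers of vessel growth, their receptors and 1 secreted inhibitor. The rule uses no measured value, but the choice was made with earlier results of these data known. Every probe whose RefSeq transcript maps to a member symbol was taken, which gave 13 probes for 10 of the 19483 gene symbols named on the array. VEGFA, THBS1 and FGF2 had 2 probes each and the other members had 1. The cells were U87, a human glioblastoma line, which received siRNA targeting RND3 (siRND3) or a non-silencing siRNA (siControl). Cells were collected 24 h after transfection (3 siControl and 3 siRND3 arrays) and 48 h after it (1 siControl and 1 siRND3 array). No gene was deleted and no transgene was used, and all samples went through the same lipid transfection. Per the methods there was a pair of RND3 siRNAs, but which array received which of them is not given in the sources used here, and neither is whether replicates came from separate transfections. The p-values below therefore measure the spread between these arrays, which may be technical.

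Vessel growth towards a tumour is driven mainly by ligands that tumour cells secrete and that endothelial cells read. VEGFA binds the receptor tyrosine kinases FLT1 (VEGF receptor 1) and KDR (VEGF receptor 2), and KDR carries most of the mitogenic signal. VEGFB and PGF bind FLT1, whereas VEGFC binds the lymphatic receptor FLT4 and, once processed, KDR. ANGPT1 activates the receptor TEK and steadies vessels, and ANGPT2 mostly opposes it at the same receptor. FGF2 is a heparin-binding growth factor for endothelial cells, and THBS1 (thrombospondin 1) is a matrix glycoprotein that restrains them. Glioblastoma is known for abundant vessels and for VEGFA, which low oxygen induces through HIF1. Messenger RNA was measured here in cultured tumour cells, and neither secreted protein nor vessel growth was measured.

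The regions just upstream of transcription start are shown for 4 members that bear on the results: VEGFC, KDR and FGF2, whose transcripts fell after RND3 knock-down, and VEGFB, whose transcript did not pass the test. The sequences are those of RefSeq on GRCh38.p14, 5′ to 3′ on the strand of the gene, and each stops 1 base before the first annotated base of the gene. Capitals mark GC boxes, GGGCGG or its reverse complement CCGCCC, the motif known to bind SP1.
VEGFC, chr4:176792923-176793172, minus strand: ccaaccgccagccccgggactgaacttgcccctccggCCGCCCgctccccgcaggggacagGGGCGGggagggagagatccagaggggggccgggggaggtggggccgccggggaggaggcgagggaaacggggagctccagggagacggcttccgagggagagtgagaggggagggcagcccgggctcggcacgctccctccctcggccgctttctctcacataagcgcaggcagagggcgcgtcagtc
KDR, chr4:55125596-55125845, minus strand: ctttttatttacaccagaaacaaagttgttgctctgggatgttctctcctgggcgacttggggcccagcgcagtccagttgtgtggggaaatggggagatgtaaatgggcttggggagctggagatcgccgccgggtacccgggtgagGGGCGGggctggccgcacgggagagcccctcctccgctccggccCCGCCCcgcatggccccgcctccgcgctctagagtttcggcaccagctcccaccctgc
FGF2, chr4:122826581-122826681, plus strand: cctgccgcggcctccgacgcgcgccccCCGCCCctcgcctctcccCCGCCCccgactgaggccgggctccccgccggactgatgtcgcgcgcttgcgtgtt
VEGFB, chr11:64234334-64234583, plus strand: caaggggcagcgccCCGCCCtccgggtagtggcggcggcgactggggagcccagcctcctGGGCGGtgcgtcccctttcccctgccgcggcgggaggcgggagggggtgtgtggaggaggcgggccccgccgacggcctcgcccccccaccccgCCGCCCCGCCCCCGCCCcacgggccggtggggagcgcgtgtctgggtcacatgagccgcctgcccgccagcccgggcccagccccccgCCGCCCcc
Windows of 300 bases, 250 before to 50 after the start, were held for 7 of the 10 members, namely VEGFB, VEGFC, PGF, FLT1, KDR, THBS1 and FGF2. Each of these 7 held at least 1 GC box, from 2 in VEGFC, KDR and a window of PGF to 9, with overlaps, in VEGFB, and 45% of all 35116 promoter windows held one. None held the hypoxia response core ACGTG or its reverse complement, which 21.4% of all windows held, or the AP-1 motif TGACTCA or its reverse complement, which 4.95% held. A TATA box, TATAAA on either strand, was found in FLT1 alone, against 11.5% of all windows. These matches are letters in short windows, and both VEGFB, which did not pass the test, and the members that fell carried GC boxes.

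Levels below are log2 of background-corrected intensity after quantile normalisation over the 8 arrays, and they are compared between arrays for 1 probe at a time, never between probes. A probe counted as well above background where at least 50% of its spots on that array carried the scanner software's mark. Tests were run on the 28759 of 42405 probes for which this held on every array of either 24 h group. Of the 13 member probes, 11 passed that filter (8 genes) and the FLT1 and ANGPT2 probes did not. Between 68.3% and 70.7% of probes were well above background per array. All 8 arrays shared 1 slide and 1 scan, with siRND3 in slide row 1 and siControl in slide row 2, so row and treatment cannot be told apart. Both 48 h arrays lay in slide column 4 and the 24 h arrays in columns 1 to 3, so column and time cannot be told apart either.

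RND3 itself was measured by 1 probe (A_23_P142849). Its level was 11.88, 11.91 and 11.90 on the siControl arrays and 10.12, 10.18 and 10.42 on the siRND3 arrays at 24 h. Knock-down left 31.7% of the control level (log2 difference -1.66, SE 0.10, limma adjusted p = 0.000345). At 48 h the siControl level was 11.48 and the siRND3 level 9.84 (difference -1.65). The labels of all 8 arrays therefore fitted the level of the targeted gene, and its reduction was of like size at both times.

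The first comparison asked how the angiogenic factors changed 24 h after RND3 knock-down. Of the 8 members tested, 5 fell (VEGFA, VEGFC, KDR, ANGPT1 and FGF2) and none rose, by limma with Benjamini-Hochberg adjustment over all 28759 probes and a threshold of 0.05. Over all 14805 genes tested, 9.26% were lower and 7.16% were higher. By probe, 7 of 11 member probes fell, against 6.38% of all probes tested that were lower and 5.27% that were higher. The median difference of the 11 member probes was -0.42, beside 0.05 for all probes tested. For 7 of the 11 member probes the highest siRND3 array was still below the lowest siControl array, which held for 14% of all probes. For single values, 3 arrays against 3 cannot give a two-sided exact permutation p below 0.1.

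The number of members called depended on the control arrays. Without siControl replicate 1 no member passed, without replicate 2 only KDR did, and without replicate 3 only VEGFA did, and over all probes the calls dropped from 3350 to 1525, 1663 and 1379. Leaving out 1 siRND3 array left 3 members (without replicate 1), 4 (without replicate 2, with 2167 calls over all probes) or 3 (without replicate 3). Without the filter on dim probes, 2 members passed, VEGFA and VEGFC. In each of these cases the differences of the 7 called probes stayed negative.

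**Figure D1:**
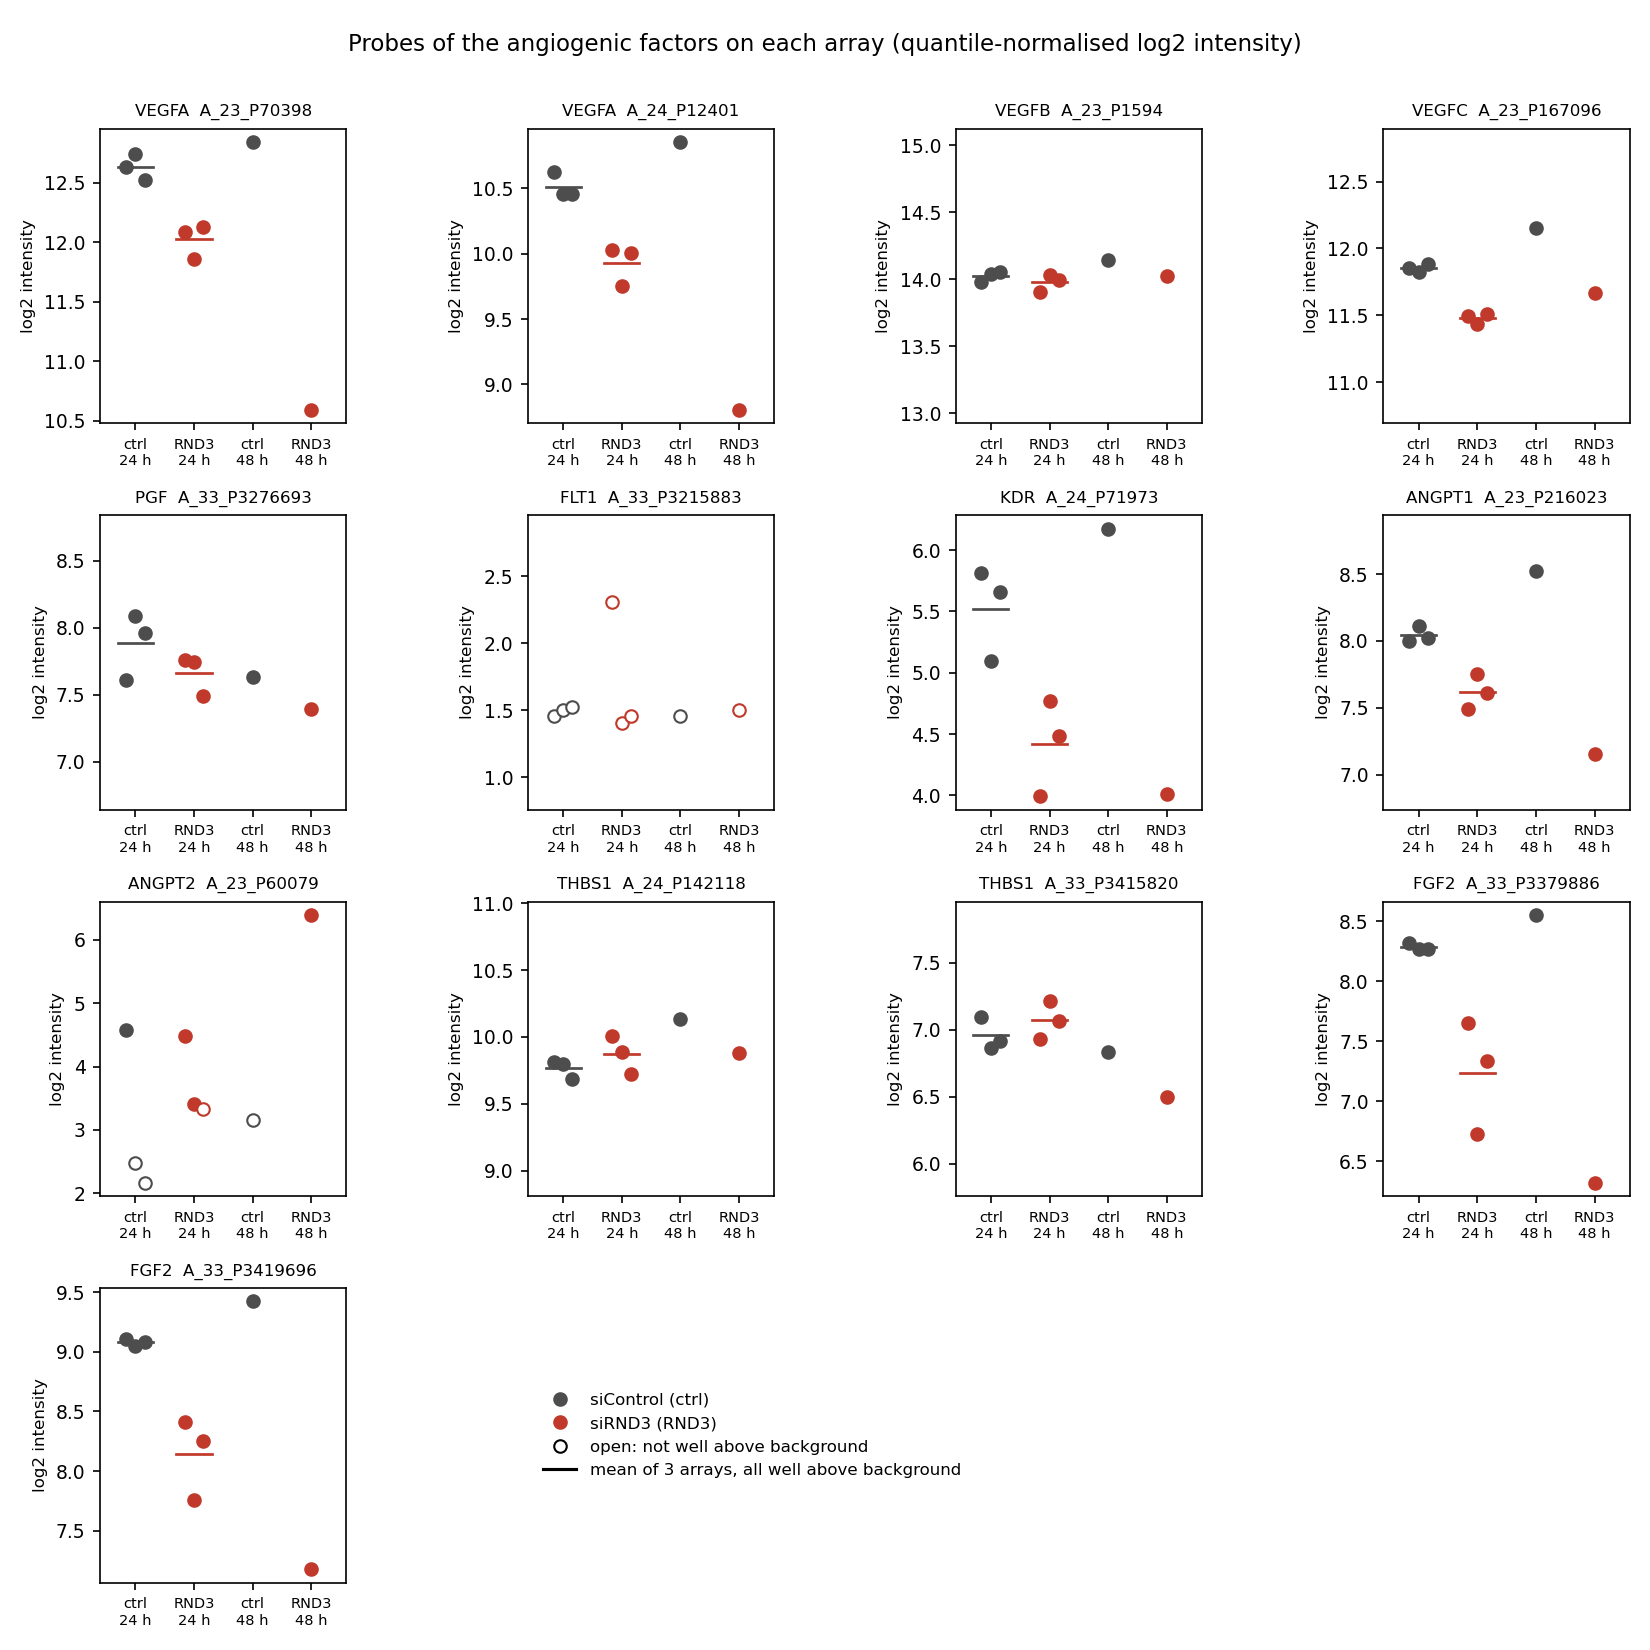
Quantile-normalised log2 intensity of each of the 13 member probes (one panel each, vertical axis in log2 units with its own range) on the 8 arrays, in the order siControl and siRND3 at 24 h, then siControl and siRND3 at 48 h. Points are arrays, open where the probe was not well above background, and lines are means of 3 arrays that were all well above background. The siRND3 points lie below the siControl points at 24 h for both probes of VEGFA and FGF2 and for VEGFC, KDR and ANGPT1, and the ANGPT2 point of the siRND3 array at 48 h stands at 6.39.

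VEGFA, the main inducer of vessel growth in the family, fell on both of its probes. On A_23_P70398 the level was 12.64, 12.74 and 12.52 in siControl cells and 12.09, 11.86 and 12.13 in siRND3 cells at 24 h. On A_24_P12401 it was 10.63, 10.45 and 10.46 against 10.03, 9.75 and 10.01. The groups did not overlap on either probe, and replicate 2 was the lowest siRND3 array on both. On the linear scale, the first probe read 5893 to 6854 in siControl cells against 3719 to 4471 after knock-down. Knock-down left 65.6% of the control level on the first probe (log2 difference -0.61, SE 0.10, limma adjusted p = 0.0153) and 66.7% on the second (-0.58, SE 0.10, adjusted p = 0.0180). The pair of probes thus gave nearly the same difference. The first probe did not pass without siControl replicate 1 (limma adjusted p = 0.0588) nor without replicate 2 of that group (0.0560), and the second did not pass without any 1 of the siControl arrays (adjusted p from 0.0526 to 0.0672).

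Among the other VEGF ligands, VEGFC fell and VEGFB and PGF did not pass the test. VEGFC, the ligand best known for lymphatic vessel growth, read 11.85, 11.83 and 11.89 in siControl cells and 11.50, 11.44 and 11.51 in siRND3 cells at 24 h. Its replicates lay close together, so that a fall to 77.2% of control passed (log2 difference -0.37, SE 0.07, limma adjusted p = 0.0190). VEGFB, which binds FLT1 and is linked to fatty acid uptake and vessel survival, read 13.98, 14.04 and 14.05 against 13.91, 14.03 and 14.00. These groups overlapped, and the difference was -0.05 with a 95% interval from -0.22 to 0.13 (adjusted p = 0.728). PGF, placental growth factor, read 7.61, 8.09 and 7.96 against 7.76, 7.75 and 7.49. Its groups overlapped too, and its difference of -0.22 had an interval from -0.57 to 0.13 (adjusted p = 0.370), wide enough to hold a fall as large as that of VEGFC. The interval of VEGFB did not reach the difference measured for VEGFA.

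Of the VEGF receptors, which tumour cells can carry as well as endothelial cells, KDR was detected and FLT1 was not. The FLT1 probe (A_33_P3215883) was well above background on 0 of 8 arrays, with levels from 1.41 to 2.31, so no fold is given. KDR was well above background on all 8 arrays but dim, and read 5.81, 5.09 and 5.66 in siControl cells and 3.99, 4.77 and 4.48 in siRND3 cells at 24 h. The groups did not overlap, although the spread within each was wide (SD 0.38 and 0.39, n = 3). KDR fell to 46.5% of control (log2 difference -1.11, SE 0.25, limma adjusted p = 0.0394). The size of this fall turned on the background correction. With normexp it was -0.35 and in the deposited table of log2 values, which has no background subtraction, it was -0.55, both past the threshold, and 5 of the 6 fits without 1 array did not pass (adjusted p from 0.0535 to 0.120).

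KDR is best known from endothelial cells, so markers of these cells were examined beside it. TIE1, CLDN5 and ERG were well above background on 0 of 8 arrays and EMCN on 1, while the other 6 of 10 markers were well above background on every array at 24 h. The summed linear level of the 10 genes ran from 412 to 454 on siControl arrays and from 399 to 413 on siRND3 arrays at 24 h. At 48 h it was 498 in siControl and 385 in siRND3 cells. One marker of the 6 tested, PECAM1, fell on A_23_P252471 (log2 difference -0.99, limma adjusted p = 0.0216) and did not pass on A_33_P3405213 (-0.58, adjusted p = 0.0640). The part of these markers in the KDR result was not tested. Of the glioma markers, VIM, NES, CD44, TNC, EGFR and FABP7 were well above background on all 8 arrays, and GFAP, an astrocyte filament, and SOX2, a stem cell factor, on none.

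Each angiopoietin had 1 probe, and ANGPT1 fell whereas ANGPT2 was too dim at 24 h to be tested. ANGPT1 read 8.0, 8.11 and 8.02 in siControl cells and 7.50, 7.76 and 7.61 in siRND3 cells at 24 h, with no overlap. It fell to 74.6% of control (log2 difference -0.42, SE 0.09, limma adjusted p = 0.0323). Of the 6 fits without 1 array, only that without siRND3 replicate 2 kept ANGPT1 past the threshold. ANGPT2 was near background at 24 h, and its probe (A_23_P60079) was well above it on 1 of 3 siControl arrays and 2 of 3 siRND3 arrays. It read 4.57, 2.48 and 2.17 in siControl cells and 4.49, 3.42 and 3.34 in siRND3 cells, so the groups overlapped, and it was not tested.

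FGF2 fell on both of its probes. On A_33_P3379886 it read 8.32, 8.27 and 8.27 in siControl cells and 7.65, 6.73 and 7.34 in siRND3 cells at 24 h. On A_33_P3419696 it read 9.11, 9.05 and 9.08 against 8.41, 7.76 and 8.25. Control arrays lay within 0.1 of each other, whereas siRND3 replicate 2 was the lowest on both probes and set a wide spread (SD 0.47 and 0.34, n = 3, against 0.029 and 0.027). Knock-down left 48.5% of the control level on the first probe (log2 difference -1.04, SE 0.22, limma adjusted p = 0.0309) and 52.2% on the second (-0.94, SE 0.17, adjusted p = 0.0172). Without siRND3 replicate 2 the differences were smaller, -0.79 and -0.75, and both still passed. Neither probe passed without any 1 of the siControl arrays (adjusted p from 0.0550 to 0.0932) or without the filter on dim probes (0.0811 and 0.0501), and the first did not pass without siRND3 replicate 3 (0.0680).

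THBS1, the inhibitor among the members, did not pass the test at 24 h. On A_24_P142118 it read 9.82, 9.80 and 9.69 in siControl cells and 10.01, 9.88 and 9.72 in siRND3 cells, and on A_33_P3415820 7.09, 6.87 and 6.91 against 6.93, 7.21 and 7.06. The groups overlapped on both probes. The differences were 0.10 (95% interval -0.13 to 0.33, limma adjusted p = 0.534) and 0.11 (-0.14 to 0.36, adjusted p = 0.538). These intervals did not reach the falls measured for VEGFA, ANGPT1 or FGF2.

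**Figure D2:**
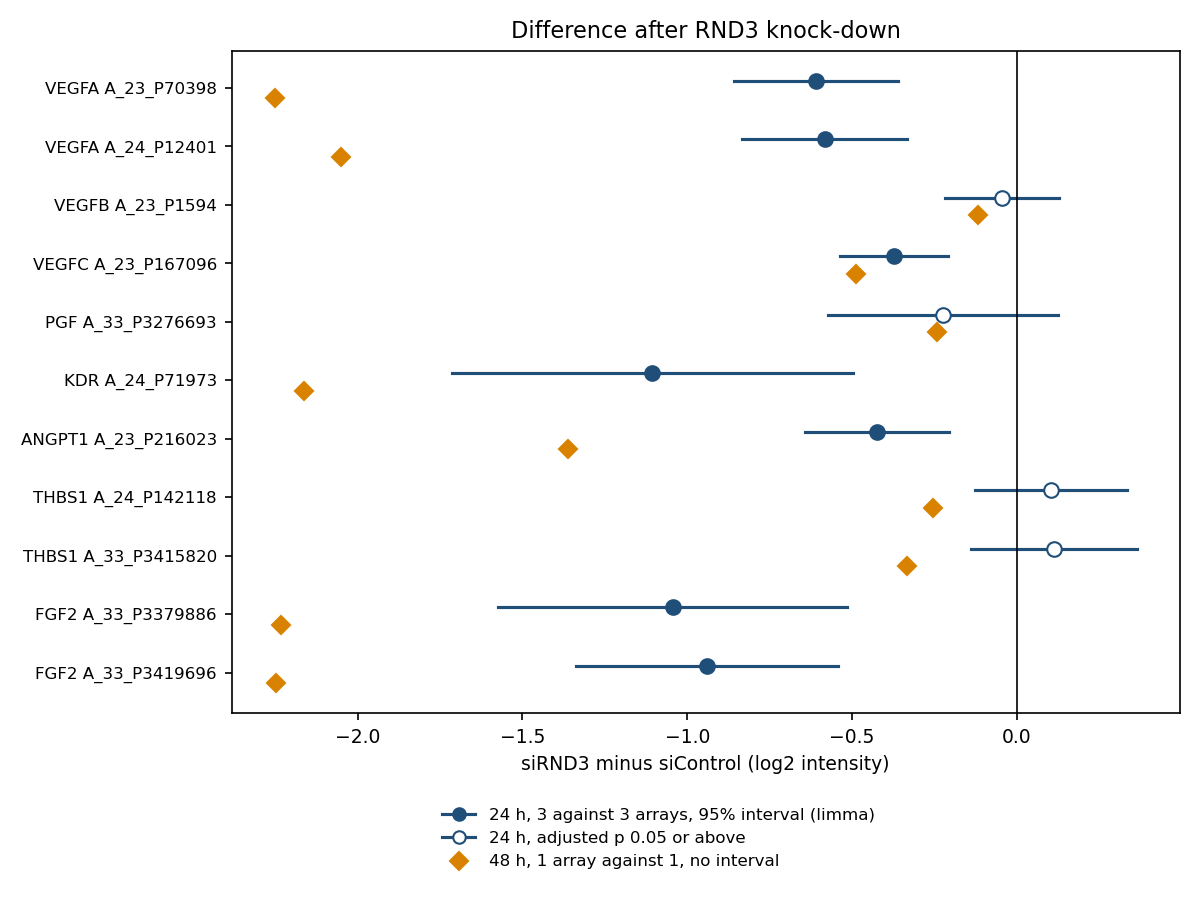
siRND3 minus siControl in log2 intensity (horizontal axis) for the 11 tested member probes (rows). Circles with 95% intervals from limma are 24 h (3 against 3 arrays, open where the adjusted p was 0.05 or above), and diamonds are the single pair of arrays at 48 h, which has no interval. At 24 h 7 probes are filled and lie between -1.11 and -0.37, and the diamonds of both VEGFA probes, both FGF2 probes and KDR lie between -2.25 and -2.05.

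The second question was how the difference stood at 48 h, where each treatment had 1 array and the values have no replicate check. All 11 tested member probes read lower on the siRND3 array than on the siControl array, with a median difference of -1.36, beside 0.05 over all probes tested. The difference exceeded 1 log2 unit for 6 of these probes from 4 genes, VEGFA, KDR, ANGPT1 and FGF2, and 5.62% of all probes tested were lower by that much. VEGFA read 10.59 against 12.84 in control on its first probe (21.0% of control) and 8.80 against 10.85 on its second (24.2%). FGF2 read 6.32 against 8.55 (21.3%) and 7.18 against 9.42 (21.1%). KDR read 4.01 against 6.17 (22.3%), and ANGPT1 read 7.16 against 8.52 (38.9%). The KDR probe was dim, and the size of its fall at 24 h turned on the background correction. Its effect at 48 h minus that at 24 h ran from -1.27 to -0.38 across settings. The size of the KDR difference at 48 h is therefore uncertain too. Differences were smaller for the other VEGF ligands, VEGFC, at 11.66 against 12.15 (71.4%), PGF, at 7.39 against 7.63 (84.6%), and VEGFB, at 14.02 against 14.14 (92.2%). For VEGFC the difference was -0.49, beside -0.37 at 24 h. THBS1 read 9.88 against 10.14 on its first probe and 6.50 against 6.83 on its second, lower in siRND3 cells on both, where at 24 h both means were slightly higher.

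ANGPT2 went the other way at 48 h. Its probe read 6.39 in siRND3 cells, well above background, and 3.16 in siControl cells, where it was not well above background. As processed here this is a 9.39-fold higher level on the siRND3 array. The size is not a bound, as it rests on the background subtraction of a dim control signal. Other background corrections were not tried for this probe. The 48 h siRND3 value also lay above all 6 values at 24 h, the highest of which was 4.57 in a siControl array. Of the 30222 probes well above background on at least 1 array at 48 h, 0.218% were higher on the siRND3 array by over 3 log2 units. With 1 array per treatment, this difference has no test.

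Whether the effect of knock-down differed between the times was tested in a limma model of all 8 arrays, which takes the lone 48 h arrays to have the spread of the 24 h arrays. The variation between arrays at 48 h was thus never measured, and the p-values hold only under that assumption. VEGFA was the 1 member that passed, on both probes. The 48 h effect exceeded that at 24 h by -1.64 on the first probe (SE 0.21, limma adjusted p = 0.0250) and by -1.47 on the second (SE 0.21, adjusted p = 0.0299). Over all probes 1.63% had a lower and 1.1% a higher effect at 48 h. All 11 member probes had a more negative effect at 48 h, with a median of -0.94, beside 0.00457 over all probes tested, but for the other 9 probes the difference did not pass. ANGPT1 came nearest, at -0.94 (SE 0.18, adjusted p = 0.0530), and FGF2, whose siRND3 arrays at 24 h were spread, had -1.31 on its second probe (SE 0.33, adjusted p = 0.10). For RND3 the same difference was 0.01 (SE 0.19, adjusted p = 0.992). The VEGFA call did not hold without any 1 of the 3 siControl arrays at 24 h or without siRND3 replicate 1, where no member passed and the calls over all probes were 7, 28, 23 and 189 in place of 785. They were 250 without siRND3 replicate 2, where VEGFA passed on both probes and FGF2 on its second (-1.50, adjusted p = 0.0398), and 273 without siRND3 replicate 3, where VEGFA passed on its first probe alone.

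The same model gave the change with time within each treatment, which cannot be told apart from slide column. In siControl cells no member passed between 24 h and 48 h, while 2.73% of all probes were lower and 0.824% were higher at 48 h. The median change over the 11 probes was 0.30, beside 0.03 over all probes tested. Against the 24 h mean, the siControl array at 48 h read higher by 0.21 and 0.34 for VEGFA and 0.30 for VEGFC. For ANGPT1 it was 0.48 higher and for FGF2 0.27 and 0.34. It read lower for PGF (-0.25) and the second THBS1 probe (-0.13). In siRND3 cells VEGFA was the 1 member that passed with time, the single array at 48 h again taking its spread from 24 h. It read lower by -1.44 on its first probe (adjusted p = 0.00464) and by -1.12 on its second (adjusted p = 0.00891), where 6.45% of all probes were lower and 2.59% higher. Over the 11 probes the median change with time in siRND3 cells was -0.46, beside 0.05 over all probes tested. For ANGPT1 (-0.46, adjusted p = 0.0764) and the second FGF2 probe (-0.96, adjusted p = 0.0541) the fall with time did not pass. These comparisons share arrays with each other and with the comparison at 24 h, so they are not independent.

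**Figure D3:**
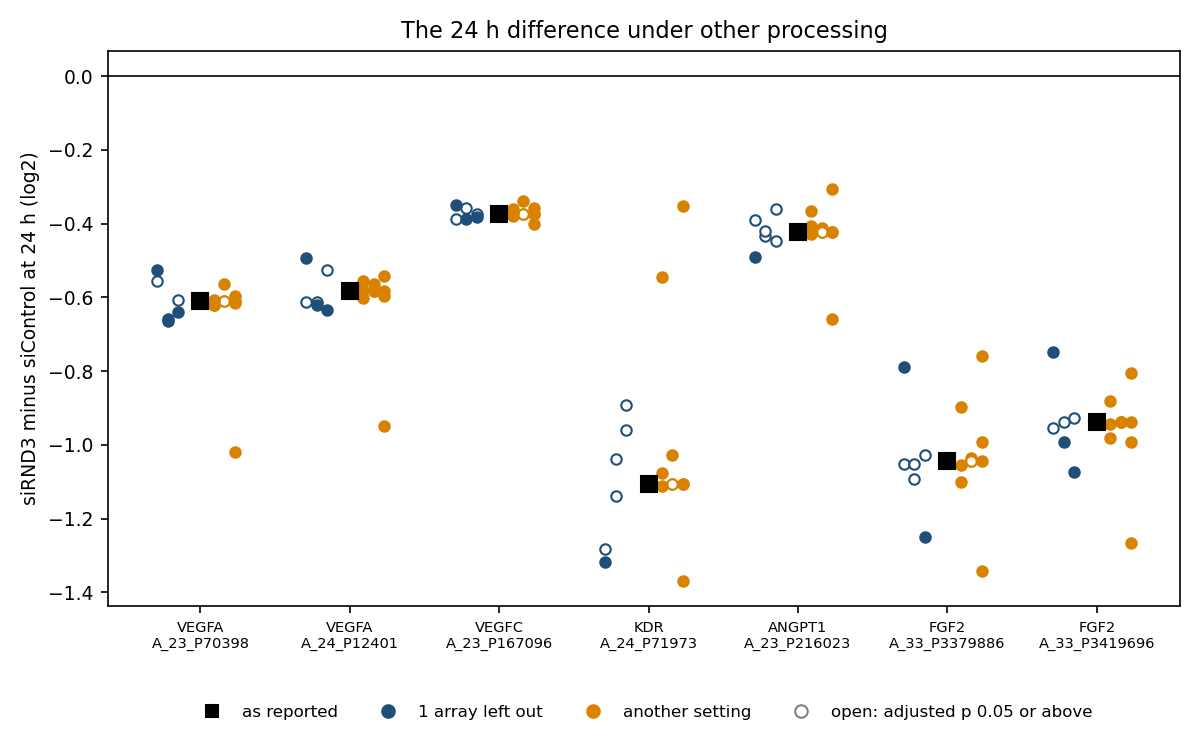
siRND3 minus siControl at 24 h in log2 units (vertical axis) for the 7 member probes that fell, as reported (squares), with 1 array left out (blue circles) and under other settings of the limma fit (orange circles), spread sideways for view, open where the adjusted p was 0.05 or above. Each value lies below 0, and KDR moves most, from -1.11 as reported to -0.35 with normexp.

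The members were then set beside 5 lists of genes from the same biology, chosen by function. No gene on any of these lists rose at 24 h, although up to 1 gene did so on 3 of the lists under other settings. Of the VEGF and angiopoietin family outside the members, 2 of 7 tested genes fell (28.6%, against 9.26% of all genes), with a median difference of 0.03 over its probes. ANGPTL4, a secreted angiopoietin-like protein that inhibits lipoprotein lipase, read 11.50, 11.57 and 11.62 in siControl cells and 10.57, 10.55 and 10.50 in siRND3 cells. It fell to 49.2% of control (log2 difference -1.02, SE 0.07, limma adjusted p = 0.000608), and at 48 h it read 7.35 against 11.24, the largest difference at that time among the genes named here. ANGPTL2 fell by less (-0.32, adjusted p = 0.0342) and did not pass in 7 of 17 other settings, among them every fit without 1 array.

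Of other secreted inducers of vessel growth, 7 of 22 tested genes fell (31.8%), with a median of -0.07. CXCL8, interleukin 8 (-1.31, limma adjusted p = 0.0187), and HBEGF, a ligand of the EGF receptor (-1.27, adjusted p = 0.000494), were among them. CXCL8 did not pass in 4 of 17 other settings. The CXCR4 ligand CXCL12 fell on A_23_P202448 (-1.48, adjusted p = 0.000856), but 2 other probes did not pass, A_33_P3372840 (-0.31, adjusted p = 0.424) and A_33_P3712341 (0.08, adjusted p = 0.537). Across settings the difference on A_23_P202448 ran from -1.57 to -0.57, past the threshold each time. On the single arrays at 48 h the differences were -3.84 for CXCL8, -2.31 for HBEGF and -1.76 for that CXCL12 probe. CXCL8 resembled FGF2 in that siRND3 replicate 2 was its lowest array at 24 h (5.61, beside 6.47 and 6.50).

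Of other endogenous inhibitors, 2 of 17 tested genes fell (11.8%, near the 9.26% of all genes), with a median of -0.08. COL4A2, whose collagen IV chain releases the fragment canstatin, fell (-1.10, limma adjusted p = 0.000608; 8.50 against 12.13 at 48 h). SEMA3A, a semaphorin that competes with VEGFA for neuropilin, entered the test through its siControl arrays, and 2 of 3 siRND3 arrays at 24 h had it well above background. Its difference of -1.49 (adjusted p = 0.0246) shrank to -0.15 with normexp and -0.24 in the deposited log2 values, where it did not pass (adjusted p = 0.148 and 0.0967).

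The list for low oxygen held genes of the hypoxia response and the HIF subunits HIF1A, EPAS1 and ARNT. Of its 20 tested genes, 5 fell (25%, against 9.26% of all genes) and 15 did not pass. The median was -0.23 at 24 h and -0.70 at 48 h. The number that fell ran from 1 to 9 across settings. NDRG1, a stress response gene, read 14.52, 14.27 and 14.37 in siControl cells and 13.56, 13.70 and 13.76 in siRND3 cells (log2 difference -0.72, SE 0.10, limma adjusted p = 0.00705). ANKRD37 (-0.48, adjusted p = 0.0377) and BNIP3, a mediator of mitophagy (-0.44, adjusted p = 0.0367), also fell. Their differences were not compared with that of VEGFA by a test. ANKRD37 did not pass in 6 and BNIP3 in 7 of 17 other settings. Of the signalling genes that act below the VEGF receptors, 3 of 22 passed as lower (13.6%, against 9.26% of all genes, and 1 to 6 across settings), with a median of -0.06. These were MAPKAPK2, a kinase of the p38 pathway (-0.74, adjusted p = 0.0148), SHC1, an adaptor of receptor tyrosine kinases (-0.33, adjusted p = 0.0434), and PLCG2. SHC1 did not pass on its other probe, A_24_P68585 (-0.39, adjusted p = 0.151), and was lost in 10 of 17 other settings. PLCG2 was well above background on no siRND3 array and entered the test through siControl alone, so its place among the 3 follows in part from the filter. As processed here its level read 1.59-fold lower in siRND3 cells at 24 h. This size is not a bound, as the difference was only -0.10 with normexp and -0.17 in the deposited log2 values. It did not pass in either (limma adjusted p = 0.286 and 0.150).

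**Figure D4:**
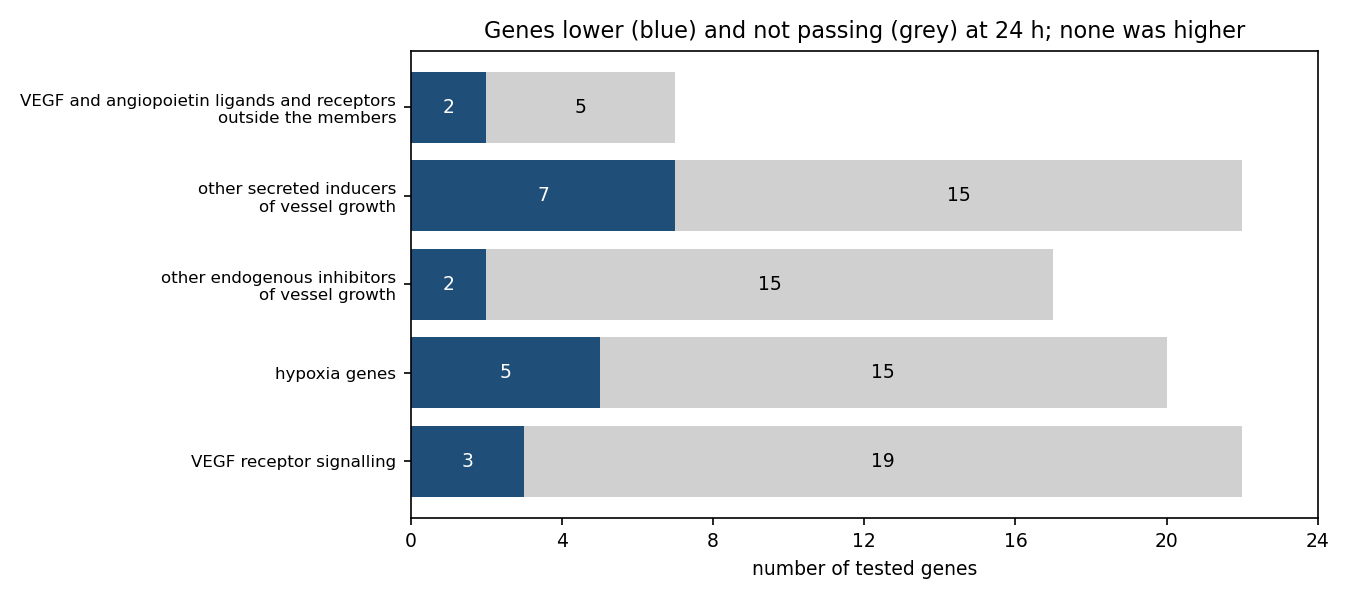
Number of tested genes (horizontal axis) in each of 5 gene lists of vessel growth and low oxygen that were lower at 24 h (blue) or did not pass the limma test (grey). No gene was higher, and the lower genes number 2 of 7, 7 of 22, 2 of 17, 5 of 20 and 3 of 22 from top to bottom.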

How the data were processed

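Total RNA of U87 cells was hybridised to 8 Agilent human arrays with 1 colour (Cy3), 1 array per sample, with groups taken from the labels. The authors amplified and labelled the RNA with a low-input kit and ran Agilent Feature Extraction, version 10.7.3.1 per the headers of the scanner output. In the deposited scanner output each spot has a linear intensity, and its processed signal is background-corrected within the array. A second deposited table gives log2 values, quantile-normalised by the authors, and served as an alternative.

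Processed intensities were put on the log2 scale and quantile-normalised across arrays on all 58717 spots that were not controls. Spots marked as outliers (0.364% to 0.530% per array) were then left out and spots of a probe averaged, which gave 42405 probes. Among the member probes called, the background correction moved the dim KDR probe most. Precision is limited by the number of arrays. Probes were named by matching transcript accessions, without versions, to RefSeq genes of GRCh38.p14 (25422 probes, 60.0%). The array was annotated on hg19, so no probe positions are given. Promoter windows of GRCh38.p14 were searched whole for motifs, and the sequences shown were cut to end before the first annotated base.

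Groups at 24 h were compared with limma 3.58.1 in R 4.3.3 on 6 arrays, and both times in a 4-group limma model of 8 arrays, with Benjamini-Hochberg adjustment over 28759 probes and a threshold of 0.05. The methods' SAM at 5% false discovery was an alternative. A gene counted as changed when 1 of its probes passed and none passed the other way. Probes of a gene were kept apart. The fit was tested on simulated data. Same-numbered arrays of the 2 treatments deviated together with correlations of 0.0020, -0.012 and 0.13, so the replicate numbers were not taken as pairs. Other alternatives were scaling to the 75th percentile, normexp background correction (offset 50), normalisation over the 6 arrays at 24 h, other filters on dim probes, array weights, the mean of a gene's probes, a fit of treatment plus time to all 8 arrays, the replicate number as a block, and leaving out each array at 24 h. Named genes were all members, RND3, markers, and from each other list up to 3 rises and 3 falls with the largest change among genes that passed. The members and lists were chosen with earlier results of these data known.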

Additional observations from a re-analysis of the deposited data

Results flagged for a closer look

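The difference after RND3 knock-down read more negative at 48 h than at 24 h for VEGFA, by -1.64 on probe A_23_P70398 and by -1.47 on A_24_P12401, which passed in limma (adjusted p = 0.0250 and 0.0299) only if the lone 48 h arrays are taken to have the spread of the 24 h arrays. It did not pass without any 1 siControl array at 24 h or with the replicate block (adjusted p = 0.115). A signal also stood out in a probe outside the tests. As processed here ANGPT2 read 9.39-fold higher on the siRND3 array than on the siControl array at 48 h. The control was not well above background there, so this size is not a bound. No groups of 4 or more arrays existed, so single arrays were not tested as outliers.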

How the results depend on the processing

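At 24 h, where 5 members fell, 2 did so without the filter on dim probes and 0 to 4 when 1 array was left out, and over all probes the calls were 1379 to 2574 when 1 array was left out, beside 3350. For the effect at 48 h minus that at 24 h, where 1 member passed, the number was 3 with normexp, and 2 with the authors' values, the filter on all arrays or array weights, and 0 to 2 when 1 array was left out. Over all probes the calls there were 1300 with normexp and 7 to 273 when 1 array was left out. For time in siControl cells, normexp gave 1 member and 1565 probes, and leaving out 1 array gave 73 to 905 probes. For time in siRND3 cells, normexp and the authors' values gave 3 members each, the filter on all arrays gave 2, and leaving out 1 array gave 1 to 2 members and 1446 to 2394 probes. With the replicate number as a block, 2 members and 1651 probes were called at 24 h. In the block fit the effect at 48 h minus that at 24 h had 0 members and 0 probes, time in siControl cells had 0 probes, and time in siRND3 cells had 0 members and 1 probe. VEGFA then did not pass for time in siRND3 cells (adjusted p = 0.0595 and 0.0574). Same-numbered arrays at 24 h also lay in the same slide column, so there the block stands for both. The 48 h arrays, numbered 1, lay in column 4 and were blocked with the 24 h arrays of column 1. Of the 3 siControl arrays, number 3 correlated best with the siRND3 array of its own number (0.13) and number 2 with siRND3 array 1 (0.11). Number 1 lay near 0 with each (-0.0026 to 0.0020). The cause of these moves was not tested. Genes lower at 24 h ran from 1 to 2, 6 to 8, 1 to 2, 1 to 9 and 1 to 6 across settings in the lists of the family, inducers, inhibitors, low oxygen and receptor signalling. SAM at 5% called the 5 members too. A fit of treatment plus time to all 8 arrays, which takes in the 48 h arrays, gave -1.02 and -0.95 for VEGFA and -0.66 for ANGPT1.

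Signs turned in values that had not passed. For THBS1 on A_24_P142118, the change with time in siRND3 cells, 0.0080, was -0.085 with the replicate block, -0.28 as the mean of all probes and -0.066 to 0.076 when 1 array was left out. For THBS1 on A_33_P3415820, the change with time in siControl cells, -0.13, was 0.12 as the mean of all probes. For PGF, the effect at 48 h minus that at 24 h, -0.02, ran from -0.12 to 0.12 when 1 array was left out. Of 649 values of members under an alternative, 581 kept direction and side of the threshold, 47 were weaker, 14 stronger and 7 reversed. Only values that had passed could become weaker, so these totals understate how often calls were lost. Of 17 other settings at 24 h, KDR and ANGPT1 did not pass in 7 each and VEGFC in 4. The FGF2 probes did not pass in 6 and 4, and the VEGFA probes in 3 each. For the effect at 48 h minus that at 24 h, the VEGFA probes did not pass in 5 and 6 of 14. Depth is not a measure of arrays; signal close to background limited FLT1, ANGPT2 and KDR.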

Other observations

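Among the 7 glioma cell line markers tested, CD44 and OLIG2 were lower and NES was higher in siRND3 cells at 24 h. CD44, the hyaluronan receptor, read 15.80, 15.79 and 15.76 in siControl cells and 15.21, 15.10 and 15.31 in siRND3 cells (log2 difference -0.58, SE 0.08, limma adjusted p = 0.00721), and 15.89 against 13.77 at 48 h. This is close in size to the VEGFA differences at both times, although the pair was not compared by a test. OLIG2, an oligodendrocyte lineage factor, was dim and read 4.96, 4.88 and 5.26 against 3.47, 3.69 and 3.75 (log2 difference -1.40, SE 0.13, adjusted p = 0.00165). NES, an intermediate filament of neural progenitors, rose on A_23_P103672 (0.41, SE 0.10, adjusted p = 0.0472) and did not pass on A_33_P3358233 (0.23, adjusted p = 0.196).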
